A study of Mus musculus with 7 samples.

Results

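The genes around B2m on mouse chromosome 2 were taken by position alone, as all non-control array probes that the array annotation places on chromosome 2 from 116 to 128 Mb (mm7 coordinates, per the scanner file headers). Probes of B2m itself and of Bub1, Bub1b, Nusap1, Spred1 and Bcl2l11 were left out, which removed 13 probes. The interval then held 322 of the 41174 probes of the array. The first member probe began at 116627580 and the last ended at 127864352. Of these probes, 270 carried a gene symbol, for 149 genes, and 52 did not. Only probes that at least 3 arrays measured well above background, in the DN4 or the DN3 channel, were tested, and these were 285. The 37 other members were too dim, and with them 5 genes had no tested probe (4931402G19Rik, Fsip1, Gpr176, Spata5l1 and Terb2), so that counts below cover 285 probes and 144 genes.

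RNA of flow-sorted thymocytes of BALB/c mice was compared on 2-colour Agilent arrays. All 3 populations were Rag2-/-, so none could rearrange its own antigen receptor genes. Lig+ samples (4 arrays) and Lig- samples (3 arrays) were DN4 cells of KN6 Tg Rag2-/- mice, which carry a γδ T cell receptor transgene, and each was hybridised against DN3 cells of non-transgenic Rag2-/- mice. DN3 and DN4 are successive stages of thymocytes that lack CD4 and CD8. The labels give neither the age of the mice, nor the promoter of the transgene, nor the means by which the Lig- mice lacked the ligand, and the source names on slides 3 and 4 omit the DN4 stage. Per the design text, each group consists of biological replicates and includes a dye swap. Animals are not named, so p-values measure the spread between these arrays, and shared RNA between a dye swap and another array would make them too small.

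Each value is the log2 ratio of DN4 over DN3 RNA on an array, and a difference between Lig+ and Lig- is a difference of these ratios. Fitted values are given ± SE from 1 limma fit over all 7 arrays (n = 4 Lig+ and n = 3 Lig-), with a Benjamini-Hochberg adjusted p over 34906 probes and a threshold of 0.05. DN3 counted as 1 control sample, so tests against it leave out the spread between DN3 preparations, and the comparisons of Lig+ and of Lig- with DN3 share it. In bulk RNA, fewer expressing cells and less RNA per cell cannot be told apart.

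B2m encodes beta-2 microglobulin, the light chain of MHC class I and class I-like molecules. The KN6 receptor is known to recognise class I-like molecules that pair with it. Genes that lie near each other on a chromosome are inherited together and are not otherwise bound to act together, and this stretch holds genes of unrelated function. It includes the Ras activator Rasgrp1 and the cell death gene Bmf, metabolic enzymes and solute carriers, proteins of cell division, chromatin, RNA handling and membrane traffic, and the dual oxidases.

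The sequences below belong to the probes on which the largest difference in the interval and an antisense overlap rest. Bmf, a BH3-only protein that promotes apoptosis by binding survival proteins of the BCL2 family, had 3 probes on the minus strand at chr2:118269632-118269691, chr2:118272090-118272149 and chr2:118273425-118273484 (mm7). The first 30 bases of each 60-base probe are shown, in this order.
Bmf probe A_52_P384394: ttttttggttctttatatgtatacatgtgt
Bmf probe A_52_P78830: acaggattattcaaggactttggaggagaa
Bmf probe A_51_P482239: tggtggcaggtcttcctcttccttcaaaac
Exon and UTR positions of the probes are not given, since no annotation of this build was used here. A Capn3 probe on the plus strand (chr2:120248192-120248251) and a Zfp106 probe on the minus strand (chr2:120248174-120248233) overlap by 42 bases and are complementary over them. The same 30 bases of the overlap are shown 5′ to 3′ on either strand.
Capn3 probe A_52_P300971: tgctaagtaaacgtatgtgaacttaagcaa
Zfp106 probe A_52_P644354: ttgcttaagttcacatacgtttacttagca
RefSeq lists 3 start sites for Bmf, and the window from 250 bases before to 50 bases after each is shown on the minus strand of GRCm38.p6, with the E-box CAGCTG, a motif bound by E proteins, in capitals. They are shown because Bmf gave the largest difference, and no peak or binding data were measured there.
Bmf chr2:118544538-118544837: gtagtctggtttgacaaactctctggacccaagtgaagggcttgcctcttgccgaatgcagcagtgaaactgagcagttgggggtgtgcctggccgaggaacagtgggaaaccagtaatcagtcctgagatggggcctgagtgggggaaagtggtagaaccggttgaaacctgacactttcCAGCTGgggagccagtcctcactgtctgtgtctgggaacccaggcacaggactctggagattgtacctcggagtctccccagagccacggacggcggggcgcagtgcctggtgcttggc
Bmf chr2:118547550-118547849: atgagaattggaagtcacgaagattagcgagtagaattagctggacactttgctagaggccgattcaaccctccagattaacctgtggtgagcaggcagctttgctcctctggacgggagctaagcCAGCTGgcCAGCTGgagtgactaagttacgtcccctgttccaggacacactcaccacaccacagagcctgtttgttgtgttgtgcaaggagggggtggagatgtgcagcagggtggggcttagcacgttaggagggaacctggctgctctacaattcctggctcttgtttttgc
Bmf chr2:118549637-118549936: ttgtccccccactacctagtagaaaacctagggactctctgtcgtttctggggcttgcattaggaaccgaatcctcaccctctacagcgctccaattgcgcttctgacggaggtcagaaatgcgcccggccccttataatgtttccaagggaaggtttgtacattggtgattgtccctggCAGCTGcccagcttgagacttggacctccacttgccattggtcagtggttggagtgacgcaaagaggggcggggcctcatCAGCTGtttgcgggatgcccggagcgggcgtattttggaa
The motif reads the same on both strands, and 16.3% of the 32851 RefSeq windows of this length hold it. It was present in 38 of 156 windows of tested member genes (24.4%; 134 of the 144 genes matched) and in 9 of 35 windows of the genes called between Lig+ and Lig- (25.7%). The 35 windows belong to 30 genes, and all the Bmf windows above are among the 9. A match is a letter match only.

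B2m itself, given here as a reference, was far lower in Lig- cells. Its probe A_51_P129006 read 1.74, 0.70, 0.25 and -0.35 on Lig+ arrays 1 to 4 and -3.61, -5.06 and -4.70 on Lig- arrays 1 to 3. The groups did not overlap and differed by 5.16 ± 0.25 (limma adjusted p = 5.55e-04), and the probe A_51_P129012 gave 5.14 ± 0.37 (adjusted p = 0.00121). A probe annotated to B2m but 3.93 kb away on the array's coordinates, A_52_P105594, differed by 1.09 ± 0.17 (adjusted p = 0.0128).

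Genes next to B2m did not share this pattern. The 5 nearest named genes on either side had 21 tested probes in all, and 1 of them (4.76%, against 10.9% of all probes tested) was called between Lig+ and Lig-, that of Sord, 112 kb away. Sord, the enzyme that turns sorbitol into fructose, read -1.25, -0.98, -1.24 and -1.11 in Lig+ and -0.95, -0.54 and -0.70 in Lig-. It fell in both groups against DN3, with the Lig+ arrays all below the Lig- arrays and a difference of -0.43 ± 0.10 (adjusted p = 0.0489). That call sat at the threshold, and it was lost with median centring, on Agilent's processed signals, when the dye term was left out, on scan day 2 alone, and without any of Lig+ replicate 1, 3 or 4 or Lig- replicate 1, 2 or 3 (adjusted p 0.00884 to 0.22 over all alternatives). Patl2, an RNA-binding protein known from oocytes, lies 32.4 kb from B2m on the other side and read 0.15, 0.30, 1.02 and 1.23 in Lig+ and 0.24, 0.47 and -0.079 in Lig-. Its groups overlapped (0.43 ± 0.29, adjusted p = 0.414). Trim69, 26.1 kb away and a member of the ubiquitin ligase family of tripartite motif proteins, gave -0.29 ± 0.16 (adjusted p = 0.306).

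Spg11, which encodes the lysosomal protein spatacsin, had 4 tested probes with differences of -0.36, -0.48, 0.056 and 0.26, none called. The 4 probes of Ctdspl2, a phosphatase-like protein, ran from -0.06 to 0.48, those of Golm2 were -0.41 and -0.43, and the 4 of Frmd5 ran from -0.053 to 0.33. With slide as a fixed term, which pairs the Lig+ and Lig- arrays of slides 1 to 3, Golm2 probe A_52_P289071 was called (-0.40, adjusted p = 0.0241). Ctdspl2 fell against DN3 on 2 of its probes in both groups, with -0.88 ± 0.15 and -0.82 ± 0.16 on A_51_P179125 and -0.67 ± 0.11 and -0.65 ± 0.12 on A_52_P46530, in Lig+ and Lig- respectively. The Lig+ falls lost their call without Lig+ replicate 1 and the Lig- falls without Lig- replicate 1 (adjusted p 0.0698 to 0.104). Its other probes were low on the first 2 slides and near or above 0 on Lig+ arrays 3 and 4, which were scanned on another day. On Lig- array 3, scanned on that day too, A_52_P581138 stayed low (-0.85). On that day alone A_52_P105862 and A_52_P581138 stood 0.92 and 1.2 higher in Lig+ than in Lig-, which had 1 array there. Neither was called between the groups over all 7 arrays. The dual oxidase Duox2, which makes hydrogen peroxide, and its maturation factors Duoxa1 and Duoxa2 lay near 0 in both groups, from -0.15 to 0.18. Duox1, another dual oxidase of the interval, is not among these nearest genes and was called between the groups (-0.92, described below). The Duoxa1 probe A_52_P534361 was well above background on 2 of 4 Lig+ and 2 of 3 Lig- arrays, the Frmd5 probes on 2 to 4 and 1 to 3, and 1 Frmd5 value was missing on Lig+ array 2.

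**Figure D1:**
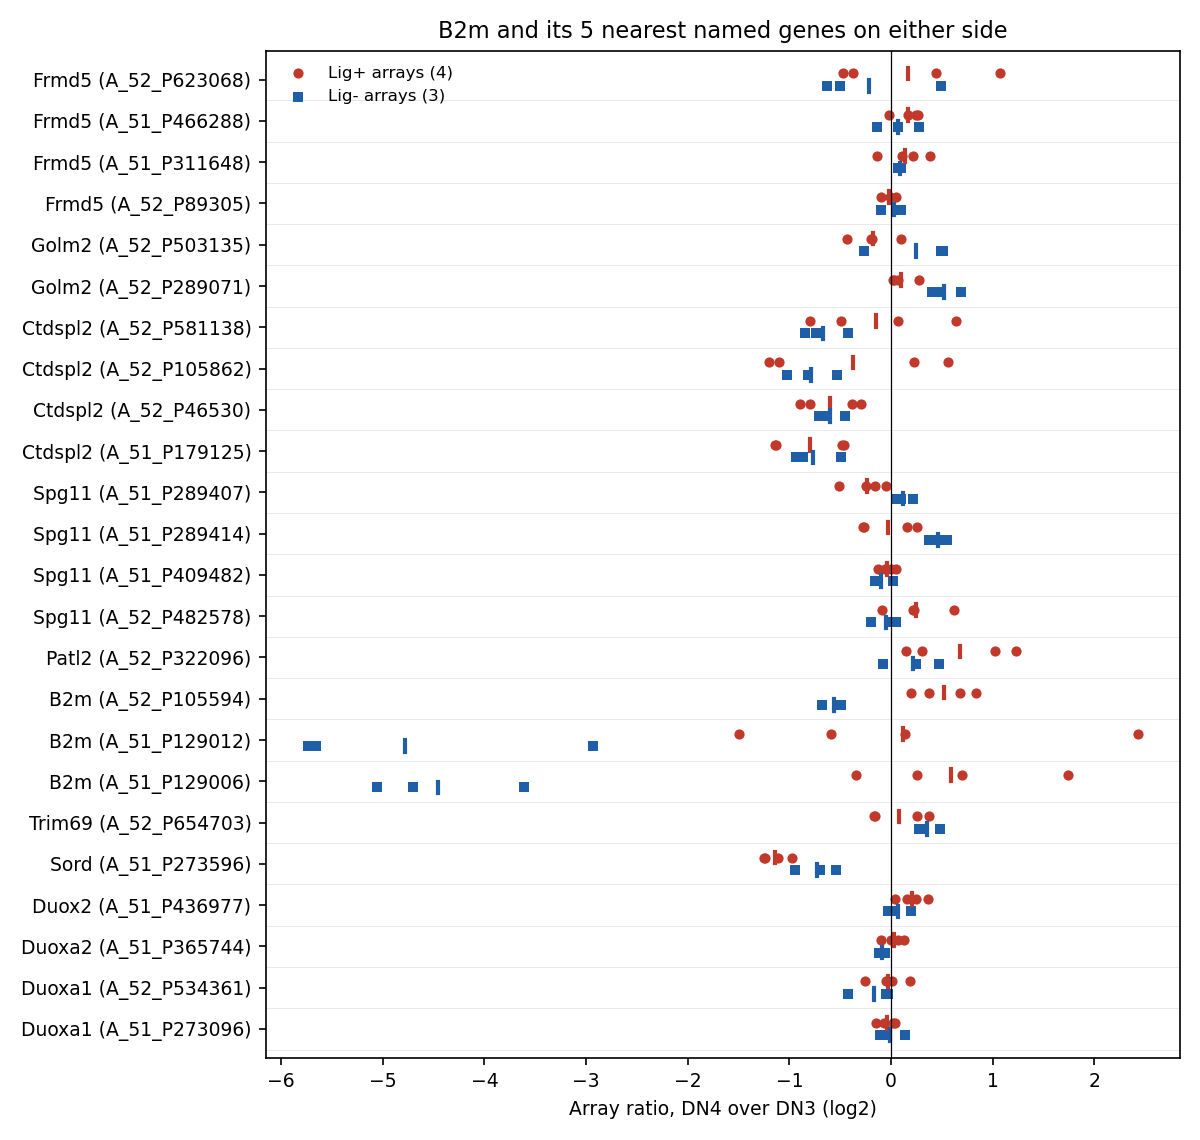
Array ratios of DN4 over DN3 (log2, x axis) for the tested probes of B2m and of the 5 nearest named genes on either side, in chromosomal order, with a point for each of 4 Lig+ and 3 Lig- arrays and bars at the group means. The B2m probes A_51_P129012 and A_51_P129006 read -2.93 or lower on every Lig- array, and the neighbouring genes show no such gap.

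Between Lig+ and Lig-, 44 of 285 member probes passed the test (15.4%), of which 13 were higher and 31 lower in Lig+. Over all probes tested 10.9% passed, 4.57% higher and 6.35% lower, and over the rest of chromosome 2 it was 258 of 2535 (10.2%; 104 higher and 154 lower). The median difference was -0.03 over the members and 0.0061 over the rest of the chromosome, with median sizes of 0.21 and 0.15. At a difference of at least 1, 15 members passed (5.26%), against 4.56% of all probes and 3.63% of the rest of the chromosome. Array ratios of Lig+ and Lig- did not overlap for 74 members (26%), of which 53 were lower in Lig+, against 22.9% of all probes and 20.5% of the rest of chromosome 2. Among genes, 33 of 144 had a called probe, 10 higher and 23 lower, and no gene had calls of both signs.

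The difference had 1 sign on slides 1, 2 and 3 for all 44 called probes, and the sign was kept for all of them that were tested under each of 19 other settings. The calls came from these same arrays, so a shared sign was likely from the start and adds no separate support. The count fell most without an array of the pair that carried DN4 RNA in Alexa 647. When either array of this pair is left out, the dye term rests on the other alone. Both fits thus compare Lig+ with Lig- on the same remaining arrays, and throughout they count as 1 check of that difference. Without Lig+ replicate 1, or without Lig- replicate 1, 12 member probes passed, and the rest of chromosome 2 fell to 65 probes (4.21% and 2.56%). The members' count was 19 without Lig- replicate 2, 27 without Lig+ replicate 3 and 29 without Lig- replicate 3. With slide as a fixed term it rose to 68, and within scan days it was 127 on day 1 alone and 69 on day 2 alone, where 1 residual degree of freedom remained in either fit. In each of 20 settings the share of called probes was larger among members than on the rest of chromosome 2, by amounts that ran from 4.21% against 2.56% to 44.6% against 40.2%.

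**Figure D2:**
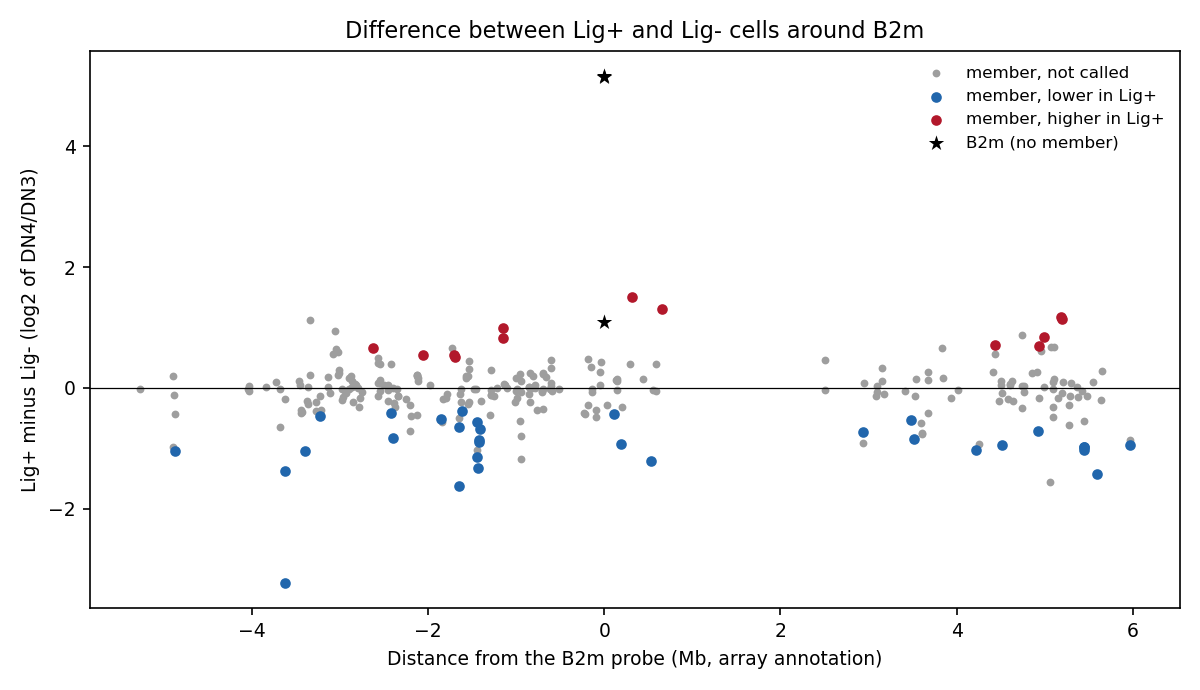
Difference between Lig+ and Lig- (log2, y axis) against distance from the B2m probe in Mb (x axis) for the 285 tested member probes, coloured by call, with the B2m probes as stars. Called probes lie across the whole interval, with 5 of 61 called within 1 Mb and 14 of 47 between 1 and 2 Mb.

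Called probes did not gather at B2m. Within 1 Mb of its probe 5 of 61 tested members were called (8.2%), between 1 and 2 Mb 14 of 47 (29.8%), between 2 and 4 Mb 11 of 108 (10.2%), and beyond 4 Mb 14 of 69 (20.3%). In tiles of 4 Mb, the members gave 9.68% (9 of 93), 17.8% (19 of 107) and 18.8% (16 of 85) from the centromeric to the telomeric end. The neighbouring tiles gave 6.52% and 4.03%. Of 43 tiles of chromosome 2 with at least 20 tested probes, the member tiles ranked 24, 8 and 6 by share. The highest were elsewhere, at 42.9% (12 of 28 probes, all higher in Lig+) and 35.7% (15 of 42) in the tiles that begin at 56 and 60 Mb. Between whole chromosomes the share ran from 9.24% to 12.2%, with 10.8% on chromosome 2.

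**Figure D3:**
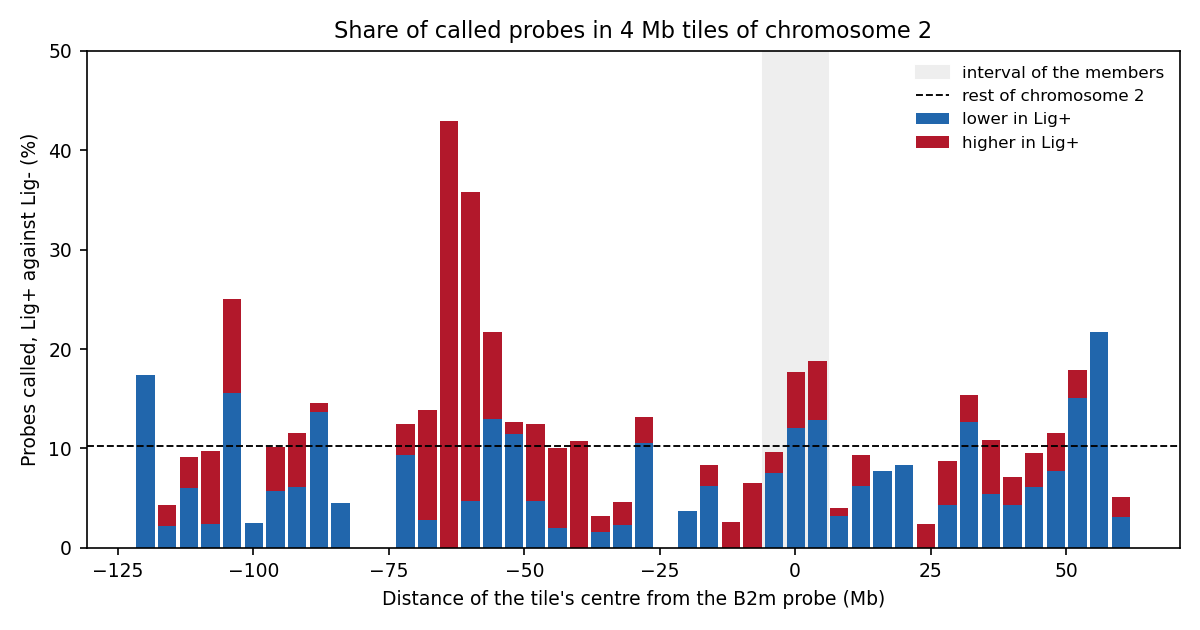
Share of tested probes called between Lig+ and Lig- (y axis, percent) in 4 Mb tiles of chromosome 2 with at least 20 tested probes, by distance of the tile's centre from the B2m probe (x axis, Mb), split by direction. The shaded tiles of the members reach 18.8%, above the 10.2% of the rest of the chromosome and below the 42.9% of the highest tile.

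Bmf gave the largest difference of the interval. Its probe A_52_P384394 read -3.87, -4.17, -3.51 and -4.27 on the Lig+ arrays and -0.98, -0.91 and -0.35 on the Lig- arrays. Every Lig+ array lay below every Lig- array by more than the spread within either group, and the difference was -3.22 ± 0.24 (adjusted p = 0.00138), a 9.31-fold lower level. Against DN3 it fell by 3.98 on the log2 scale in Lig+ (± 0.17, adjusted p = 2.03e-05) and fell by 0.76 in Lig- (± 0.19, adjusted p = 0.0234). The Lig- call was lost without Lig- replicate 1 or 2, with a random block for scan day, and on day 2 alone, where the value was -0.35 (adjusted p = 0.31, 0.103, 0.0864 and 0.385). The probe A_52_P78830 read -2.28, -2.07, -1.93 and -2.27 in Lig+ and -1.04, -0.96 and -0.33 in Lig- and differed by -1.38 ± 0.18 (adjusted p = 0.0064). With Agilent's processed signals its difference was -2.39, and it was well above background on 3 of 4 Lig+ arrays. The remaining probe, A_51_P482239, read -0.12, -0.52, -0.49 and -0.81 in Lig+ and -0.056, -0.31 and -0.41 in Lig-, so its groups overlapped (-0.19 ± 0.11, adjusted p = 0.358). The 3 probes span 3793 bases and thus gave unlike values for 1 gene, by 3.02 on the log2 scale between the first and the last.

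Other large differences of the same direction came from genes of several functions. Slc30a4, a zinc transporter of endosomes, read -1.36, -1.41, -1.45 and -1.33 in Lig+ and -0.19, -0.17 and -0.16 in Lig-. The arrays of each group lay close together, and the difference of -1.21 ± 0.08 had an adjusted p of 0.00104. Inafm2, a small membrane protein, fell in Lig+ alone by the test, to between -1.02 and -0.87, against -0.092 to 0.14 in Lig-, and differed by -1.04 ± 0.084 (adjusted p = 0.0017).

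Capn3, a calcium-dependent protease best known from muscle, read 0.031, -0.034, -0.90 and -1.18 in Lig+ and 1.38, 1.29 and 0.78 in Lig-. It rose against DN3 in Lig- (1.24 ± 0.23, adjusted p = 0.0081), whereas its value in Lig+ did not pass (-0.38 ± 0.21, adjusted p = 0.215), and the difference was -1.62 ± 0.30 (adjusted p = 0.0213). Its other probe, which overlaps Zfp106 on the opposite strand, gave -0.64 ± 0.10 (adjusted p = 0.0111) and the Zfp106 probe of the overlap -0.49 ± 0.22 (adjusted p = 0.23). Both Cdan1 probes, for a nuclear and cytoplasmic protein mutated in a congenital anaemia, were lower in Lig+, at -1.33 ± 0.21 and -1.15 ± 0.22 (adjusted p = 0.0137 and 0.0235). On A_52_P219913 the Lig+ arrays read -0.84, -0.89, -1.45 and -1.64 and the Lig- arrays 0.30, 0.31 and -0.15. Lig+ arrays lay below DN3 and Lig- arrays near it. Atp8b4, a lipid flippase of the P4 family, read -0.43, -0.14, -0.55 and -0.029 in Lig+ against 0.60, 0.66 and 0.89 in Lig- (-1.02 ± 0.15, adjusted p = 0.00989), and its other probe gave -0.92 ± 0.23 (adjusted p = 0.0563).

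Mrps5, a protein of the small subunit of the mitochondrial ribosome, had 4 tested probes, of which 3 were called at -1.03 ± 0.17, -0.97 ± 0.12 and -0.97 ± 0.22 (adjusted p = 0.015, 0.0062 and 0.041) and the fourth gave -0.54 ± 0.17 (adjusted p = 0.107). On A_52_P650288 the ratios were -0.10, -0.23, -0.43 and -0.021 in Lig+ and 0.80, 0.85 and 0.69 in Lig-. It rose in Lig- (0.79 ± 0.094) and did not pass in Lig+ (-0.17 ± 0.086). Rasgrp1, an exchange factor that activates Ras below the T cell receptor, rose in both groups on both probes, and on 1 of them less in Lig+. The probe A_52_P487303 read 2.43, 2.37, 2.44 and 2.64 in Lig+ and 3.87, 2.96 and 3.75 in Lig-, with a difference of -1.04 ± 0.22 (adjusted p = 0.034). The other Rasgrp1 probe read 1.53, 1.58, 2.66 and 3.04 in Lig+ and 2.46, 2.44 and 2.87 in Lig- and did not pass between the groups (-0.43 ± 0.37, adjusted p = 0.537).

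The 12 largest falls included 6 that lost their call without Lig+ replicate 1 or without Lig- replicate 1, for Atp8b4, Capn3, Cdan1, Mrps5 and Rasgrp1 (adjusted p 0.0696 to 0.165), with values 0.84 to 1.07 times those of all arrays. The calls of Capn3 and Rasgrp1 were also lost without Lig+ replicate 3, those of Capn3, Rasgrp1 and a Cdan1 probe without Lig- replicate 3, those of Rasgrp1 and a Cdan1 probe without Lig+ replicate 4, and those of Capn3 and 1 probe each of Cdan1 and Mrps5 without Lig- replicate 2 (adjusted p 0.0584 to 0.107). On scan day 2 alone Mrps5 probe A_52_P147870 was not called (-0.78, adjusted p = 0.0997). With median centring Rasgrp1 was not called (-0.84, adjusted p = 0.166).

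**Figure D4:**
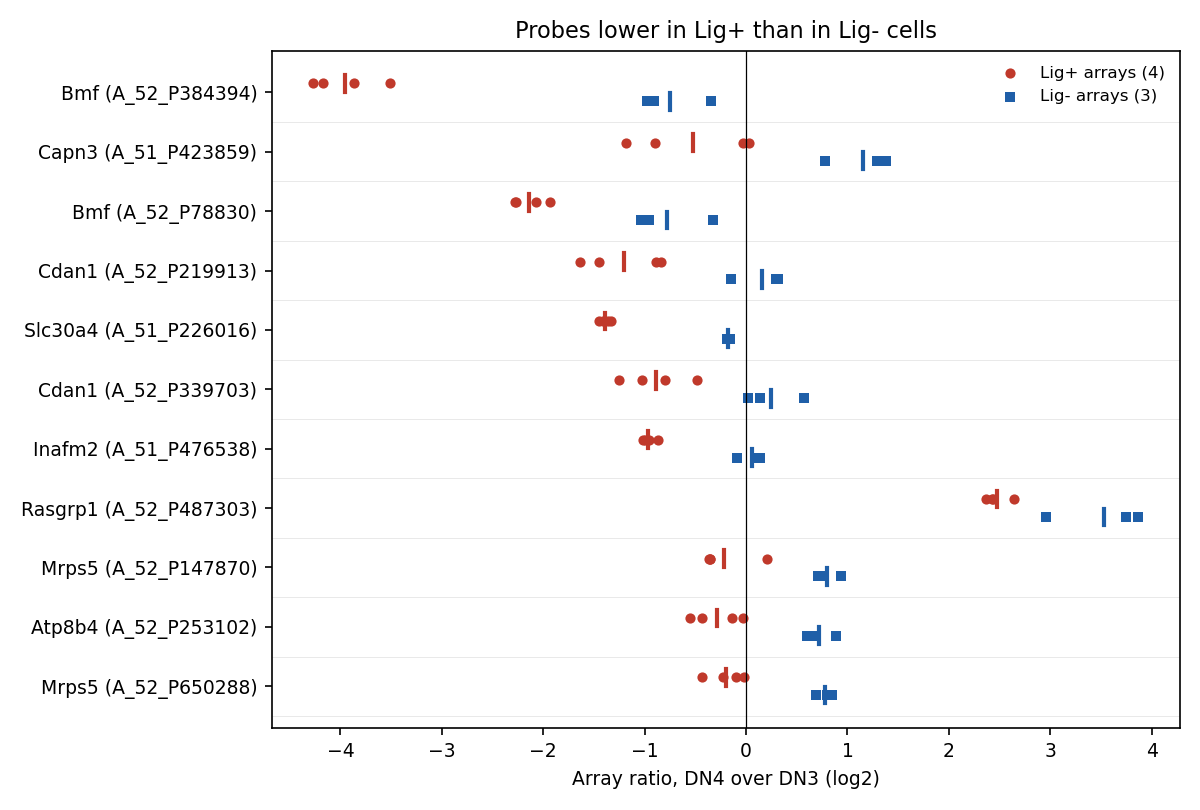
Array ratios of DN4 over DN3 (log2, x axis) for 11 of the 12 member probes with the largest called falls in Lig+ relative to Lig-, with a point for each of 4 Lig+ and 3 Lig- arrays and bars at the group means. For each of these 11 probes every Lig+ array lies below every Lig- array, by most for Bmf probe A_52_P384394. Choosing probes by large called differences makes such a gap likely, and 22.9% of all tested probes had groups that did not overlap.

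Of the 13 called probes higher in Lig+, that of Slc28a2, a sodium-driven nucleoside transporter, showed the largest difference. It lies 308 kb from the B2m probe and read 2.06, 1.93, 3.03 and 2.67 in Lig+ and 0.80, 0.88 and 1.02 in Lig-. It rose in both groups, further in Lig+ by 1.5 ± 0.26 (adjusted p = 0.0185), and its rise in Lig- was not called without any 1 of the Lig- replicates (adjusted p 0.0612 to 0.263). Sqor, the mitochondrial enzyme that oxidises hydrogen sulfide, lies 655 kb away and read 0.86, 0.91, 1.40 and 1.46 in Lig+ and -0.23, 0.056 and -0.33 in Lig-. It rose in Lig+ (1.09 ± 0.13) and lay near DN3 in Lig-, with a difference of 1.30 ± 0.18 (adjusted p = 0.0085).

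Dusp2, a nuclear phosphatase of MAP kinases that activated lymphocytes induce, read 2.26, 1.5, 1.13 and 1.47 in Lig+ and 0.76, 0.59 and 0.16 in Lig- and differed by 1.14 ± 0.17 (adjusted p = 0.012). An unnamed probe, A_51_P306031, lies on the same strand within 1.41 kb, end to end, of the Dusp2 probe. It read 1.5, 1.33, 1.24 and 1.34 in Lig+ and 0.41, 0.41 and -0.21 in Lig- (1.17 ± 0.16, adjusted p = 0.00733). The 2 probes thus differed in the same direction. Both Tmem62 probes, for a transmembrane protein, were higher in Lig+, at 0.99 ± 0.12 and 0.82 ± 0.14 (adjusted p = 0.00492 and 0.0169). On A_52_P404895 the ratios were 0.82, 0.95, 1.20 and 0.86 in Lig+ and -0.031, 0.026 and -0.11 in Lig-.

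Smaller differences of this direction came from enzymes and membrane proteins. Hdc, which makes histamine, read 0.36, 0.26, 0.44 and 0.38 in Lig+ and -0.51, -0.48 and -0.087 in Lig-, so it lay above DN3 on every Lig+ array and below it on every Lig- array (0.71 ± 0.13, adjusted p = 0.0195). Itpripl1 showed the same split, at 0.85 ± 0.13 (adjusted p = 0.0129), and its other probe gave 0.015. Blvra, which reduces biliverdin to bilirubin, differed by 0.69 ± 0.13 (adjusted p = 0.0211), with its other probe at -0.17. Exd1, known from the piRNA pathway of germ cells, rose in Lig+ to 0.42 to 0.67 and read -0.083 to -0.036 in Lig- (0.66 ± 0.10, adjusted p = 0.00987). Ganc, a neutral glucosidase, gave 0.55 ± 0.13 and 0.51 ± 0.091 on its called probes, and Ehd4, which remodels endosomal membranes, 0.55 ± 0.13 (adjusted p = 0.0434, 0.0193 and 0.044). With slide as a fixed term the Ehd4 value was again 0.55 and was not called (adjusted p = 0.0652).

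Without Lig+ replicate 1 or without Lig- replicate 1, 10 of these 12 rises lost their call (adjusted p 0.0516 to 0.208, values 0.87 to 1.17 times those of all arrays), and those of Sqor and Tmem62 probe A_52_P404895 did not. Without Lig- replicate 2 the calls of Blvra, Ehd4, Ganc, Hdc, Itpripl1, Slc28a2 and Tmem62 probe A_51_P108573 were lost, without Lig- replicate 3 those of Dusp2, Ganc, Slc28a2 and the same Tmem62 probe. Without Lig+ replicate 2 those of Ehd4 and Ganc were lost, without Lig+ replicate 3 also those of Blvra, Hdc and that Tmem62 probe, and without Lig+ replicate 4 those of Ehd4, Ganc, Hdc and Slc28a2 (adjusted p over these settings 0.0517 to 0.176). On scan day 2 alone Ganc probe A_51_P465988 stood at 0.84 and Ehd4 at 0.24, and Ehd4, Blvra, Exd1 and Hdc were not called (adjusted p 0.062 to 0.346). With Agilent's processed signals Blvra, Ehd4 and Ganc probe A_51_P465988 were not called (adjusted p 0.0537 to 0.0787). With median centring the same 3 probes, Itpripl1 and Tmem62 probe A_51_P108573 were not called (0.0527 to 0.206).

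**Figure D5:**
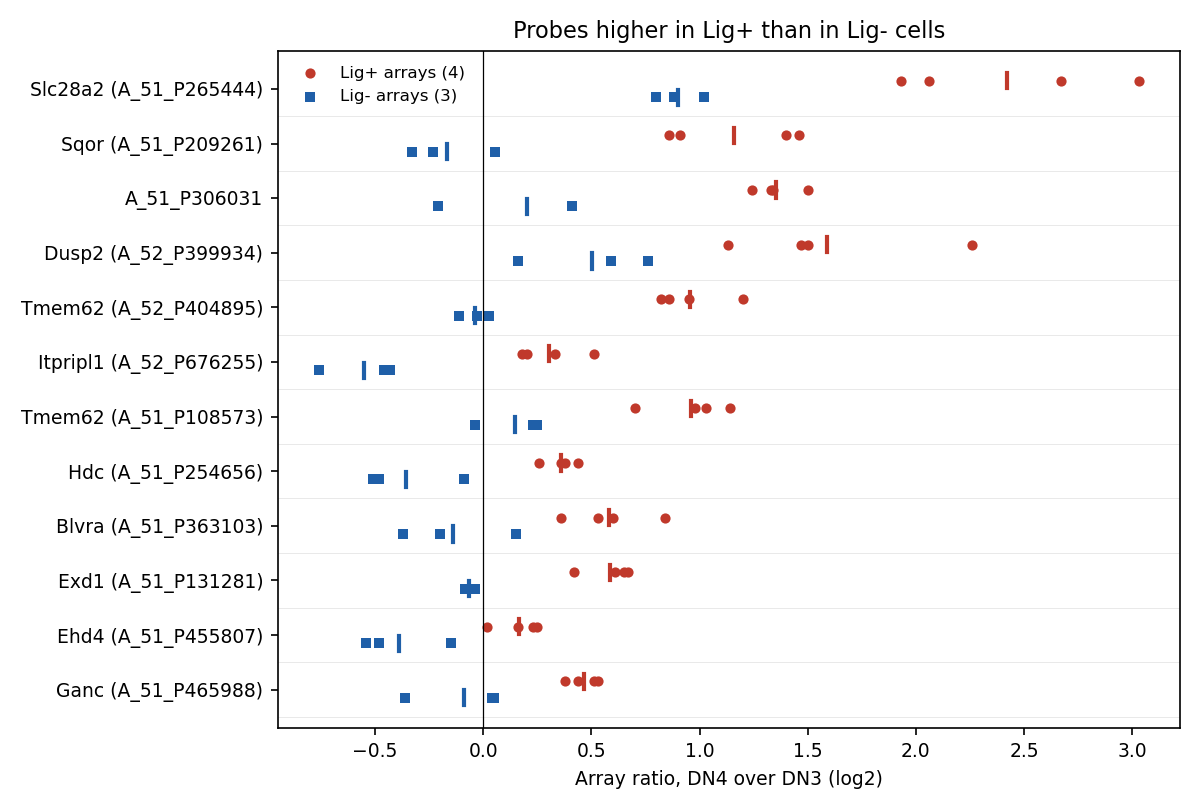
Array ratios of DN4 over DN3 (log2, x axis) for the 12 member probes with the largest called rises in Lig+ relative to Lig-, with a point for each of 4 Lig+ and 3 Lig- arrays and bars at the group means. Every Lig+ array lies above every Lig- array for these probes, a gap that choosing them by large called differences makes likely. Slc28a2 reaches 3.03 on Lig+ array 3.

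By function, calls between the groups went in both directions for metabolism, signalling and membrane traffic. In the other 4 lists the called genes, between 1 and 4 a list, were lower in Lig+, where of the calls over all probes 1595 were higher and 2217 lower. The direction of a list was not tested. Of 21 tested genes of metabolism and mitochondria, 4 were higher in Lig+ (Slc28a2, Sqor, Blvra, Ganc) and 5 lower (Slc30a4, Atp8b4, Sord, Duox1 and Pla2g4f), or 10 of 30 probes (33.3%) against 10.9% of all probes, with a median of 0.054. Duox1 was chosen after its values were seen. It read 0.43, -0.051, 0.02 and 0.041 in Lig+ and 1.25, 0.99 and 0.94 in Lig- (-0.92 ± 0.082, adjusted p = 0.00214), and so rose in Lig- more than in Lig+. Pla2g4f, a cytosolic phospholipase, rose in both groups, by 0.97 ± 0.059 in Lig+ and 1.48 ± 0.065 in Lig- (difference -0.51 ± 0.084, adjusted p = 0.0154). Its DN3 channel was well above background on 4 of 7 arrays, and with Agilent's processed signals its rises were 2.07 and 2.62 and the difference was not called (-0.55, adjusted p = 0.298).

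Of 11 tested genes of transcription and chromatin, 0 were higher and 4 lower in Lig+ (Bahd1, Rtf1, Eid1 and Myef2), or 4 of 27 probes (14.8%, against 10.9% of all probes), with a median of -0.14. Rtf1, an elongation factor that travels with RNA polymerase II, rose in both groups, to 0.38, 0.63, 0.54 and 0.68 in Lig+ and 0.82, 1.03 and 0.99 in Lig- (-0.41 ± 0.081, adjusted p = 0.028). Its 5 probes ran from -0.41 to 0.40, with 1 called. Eid1, an inhibitor of histone acetyltransferases that was chosen after its values were seen, fell in Lig+ (-0.52) and rose in Lig- (0.32), with a difference of -0.84 ± 0.10 (adjusted p = 0.00568).

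Of 16 tested genes of receptors and signalling, 1 was higher (Dusp2) and 3 lower in Lig+ (Rasgrp1, Ltk and Shc4), also 4 of 27 probes (14.8%), with a median of -0.14. Both shares are near that of all probes. Ltk, a receptor tyrosine kinase, rose in both groups, to 0.88, 1.01, 0.37 and 0.41 in Lig+ and 1.59, 1.54 and 1.43 in Lig- (-0.83 ± 0.18, adjusted p = 0.0329), and its rise in Lig+ was not called without Lig+ replicate 1 (adjusted p = 0.106). Among genes of genome maintenance and division, 0 of 13 were higher and 2 lower (Cdan1 and Ttbk2, a kinase of microtubules and cilia, at -0.90 ± 0.12, adjusted p = 0.00837). Of the genes of RNA and protein handling, 0 of 22 were higher and 3 lower (Capn3, Mrps5 and Zfp106), and of membrane traffic 1 of 10 was higher (Ehd4) and 1 lower (Ap4e1, a subunit of an adaptor complex, -0.71 ± 0.15, adjusted p = 0.0325). In probes these were 4 of 22 (18.2%), 6 of 44 (13.6%) and 2 of 24 (8.33%) for genome maintenance, RNA and protein handling, and membrane traffic, against 10.9% of all probes. The cell death list of 3 genes had Bmf alone, with 2 of 6 probes (33.3%). Ap4e1, Ltk, Pla2g4f, Rtf1, Ttbk2, Zfp106 and the uncharacterised A630026N12Rik (-0.95 ± 0.19, adjusted p = 0.0292) all lost their calls without Lig+ replicate 1, Lig- replicate 1 or Lig- replicate 2 (adjusted p 0.0505 to 0.199), with values 0.85 to 1.18 times those of all arrays. Without Lig+ replicate 3 the calls of A630026N12Rik, Ap4e1, Ltk, Rtf1 and Zfp106 were lost, without Lig+ replicate 4 those of Ap4e1, Ltk and Zfp106, without Lig- replicate 3 those of Ap4e1, Ltk, Rtf1 and Zfp106, and without Lig+ replicate 2 that of Zfp106. On day 2 alone A630026N12Rik gave -0.54 and was not called, nor were Pla2g4f, Rtf1, Sord and Zfp106. With Agilent's processed signals Ap4e1, Ltk, Rtf1 and Zfp106 were not called either (adjusted p 0.0502 to 0.109), nor with median centring Ltk, Pla2g4f, Rtf1 and Zfp106 (0.0839 to 0.176), nor without the dye term Ap4e1 and Rtf1 (0.0589 and 0.0708).

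Called probes of different genes lay side by side at a few places, a pattern that was looked for after the values were seen. The longest such series, 5 probes of 3 genes within 28.9 kb, was made of Cdan1, Stard9 and Ttbk2, all lower in Lig+. Cdan1 and Ttbk2 lie on the minus strand and Stard9, a kinesin of the mitotic spindle, on the plus strand. Its probe A_51_P376501 within the series read -0.94, -0.91, -1.24 and -1.08 in Lig+ and -0.14, -0.076 and -0.27 in Lig- (-0.87 ± 0.11, adjusted p = 0.00645). Another Stard9 probe nearby gave -0.57 ± 0.11 (adjusted p = 0.0266) and A_51_P270583 -0.017 ± 0.10. Shc4 and Eid1 formed a pair within 44.9 kb, and the other series were of 1 gene or held the unnamed probe beside Dusp2. Overlap of their transcripts was not tested.

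Probes of 1 gene did not always give 1 answer. Among the 18 genes with a call between Lig+ and Lig- and at least 2 tested probes, all probes were called in 3, and 5 had probes of opposite sign. Only Bmf had probes that differed by at least 1 on the log2 scale. GC content did not separate the probes, with a median of 41.7% for those called higher, called lower and not called. Of the probes called lower 54.8% were on the minus strand, against 30.8% of those called higher and 48.5% of those not called.

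Against DN3, the interval was close to the background in number of calls. In Lig+ 99 of 285 probes passed (34.7%; 48 rose and 51 fell), against 36.6% of all probes and 36.2% of the rest of chromosome 2. In Lig- 88 passed (30.9%; 51 rose and 37 fell), against 31.7% and 30.1%. Over all probes 17.7% rose and 18.9% fell in Lig+, and 16.3% rose and 15.5% fell in Lig-. At a change of at least 1, 24 members passed in Lig+ (8.42%, against 10.8% of all probes) and 21 in Lig- (7.37%, against 9.77%). With median centring in place of loess the splits were 33 rises and 55 falls in Lig+ and 32 rises and 38 falls in Lig-. Without Lig+ replicate 1 the first count was 43, and without Lig- replicate 1 or 2 the second was 21 or 57. Within scan days they were 190 and 199 on day 1, and the Lig+ count was 156 on day 2. With scan day as a random block, a setting chosen after seeing the data, the counts were 79 in Lig+ and 61 in Lig-. Arrays of 1 scan day deviated together (consensus correlation 0.441), which the main fit leaves out. These comparisons share the DN3 sample, so the values of both are given side by side.

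Beside Bmf in Lig+, the largest falls were those of Rhov and Fbn1. Rhov, an atypical small GTPase, read -2.49, -3.54, -3.70 and -3.70 in Lig+ and -2.78, -3.63 and -3.96 in Lig-, and fell in both, with fitted values of -3.09 ± 0.08 and -3.27 ± 0.088 in Lig+ and Lig- (adjusted p = 7.59e-06 and 1.18e-05). The groups overlapped and did not pass the test between them (0.19 ± 0.11, adjusted p = 0.37). Slc27a2, which activates long fatty acids, fell to -1.72 ± 0.20 in Lig+ and -2.28 ± 0.22 in Lig- on A_52_P154971. Gatm, the first enzyme of creatine synthesis, fell to -1.57 ± 0.29 and -1.71 ± 0.32, with -0.31 on Lig+ array 3 against -2.09 to -1.36 on the other Lig+ arrays and -0.84 on day 2 alone. Fbn1, which encodes the matrix protein fibrillin-1, fell to -2.85 ± 0.37 and -2.98 ± 0.40 on A_51_P467224, with readings of -3.56 to -3.25 on day 1 and -1.94 to -1.76 on day 2. That probe was well above background on 1 of 4 Lig+ and 2 of 3 Lig- arrays, and with Agilent's processed signals the Lig+ value was -4.5. Itpka, which phosphorylates inositol trisphosphate, fell to -1.26 ± 0.15 and -1.26 ± 0.16, and the unnamed transcript ENSMUST00000057459 to -1.08 ± 0.16 and -0.88 ± 0.17.

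Rasgrp1, described above, rose the most, and Tyro3, a receptor tyrosine kinase that binds Gas6 and protein S, rose in both groups on 2 of its 3 probes. Its probe A_52_P581056 read 1.41, 1.31, 0.99 and 1.04 in Lig+ and 1.15, 1.20 and 1.63 in Lig-, rising by 1.20 ± 0.12 and 1.33 ± 0.13 with overlapping groups (difference -0.14 ± 0.17, adjusted p = 0.698). Ubr1, a ubiquitin ligase of the N-degron pathway, rose by 1.00 ± 0.25 and 1.14 ± 0.27 on A_52_P636629, the largest change among its 6 tested probes, with readings of 1.25 to 1.5 on day 1 and 0.058 to 0.43 on day 2, and on day 2 alone neither value was called (0.22 and 0.43). Its Lig+ call was lost with median centring as well (adjusted p = 0.053), and its Lig- call without Lig+ replicate 1 or Lig- replicate 1 or 2 (0.0503, 0.141 and 0.0881). Knl1, a kinetochore scaffold of dividing cells, rose in Lig+ (1.02, 1.19, 1.40 and 0.93; 1.01 ± 0.26, adjusted p = 0.0224), a call that was lost with scan day as a random block (1.07, adjusted p = 0.0593). Its Lig- arrays read -0.042, 0.086 and 1.55, did not pass (0.45 ± 0.28, adjusted p = 0.287) and overlapped with Lig+. Secisbp2l, a protein that binds selenoprotein messenger RNA, rose in Lig- on all 3 of its probes, by 1.24 ± 0.22, 1.17 ± 0.22 and 1.12 ± 0.26. The first 2 gave 2.17 and 2.08 on Lig- array 3 and 0.80 to 0.99 on the others. In the main fit these 2 probes passed neither in Lig+ nor between the groups. With scan day as a fixed term they rose in Lig+ by 0.56 and 0.52 (adjusted p = 0.0286 and 0.022). Their differences between Lig+ and Lig- were then -0.84 and -0.82 (adjusted p = 0.0434 and 0.0291).

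Acoxl and 1810024B03Rik rose in Lig- and did not pass in Lig+. Acoxl, which resembles peroxisomal acyl-CoA oxidases, read 1.25, 1.14 and 1.33 in Lig- (1.17 ± 0.26) and -0.18, -0.068, 1.29 and 0.58 in Lig+. 1810024B03Rik read 1.26, 1.41 and 1.22 in Lig- (1.20 ± 0.30) and -1, -0.73, 0.026 and 0.84 in Lig+, and the groups missed the threshold between them (-1.56 ± 0.39, adjusted p = 0.0555) but passed with slide as a fixed term (-1.87, adjusted p = 0.0125). Its rise in Lig- was not called with scan day as a random block (adjusted p = 0.0547). Without Lig+ replicate 1, Fbn1 probe A_52_P224801, Gatm, Knl1 and Ubr1 lost their calls in Lig+ (adjusted p 0.135 to 0.306), and Knl1 also without Lig+ replicate 3 (0.0679). Without Lig- replicate 1, 11 of the 20 largest changes in Lig- were lost, among them Acoxl, Capn3, Itpka, Secisbp2l and 1810024B03Rik (adjusted p 0.0545 to 0.356), and 1810024B03Rik then stood at 0.79. It was lost as well without Lig- replicate 2 or 3, Ctdspl2 without the former and Acoxl without the latter (adjusted p 0.0522 to 0.081).

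The 13 thymocyte stage genes gave 0 rises and 7 falls against DN3 in Lig+, and 2 rises and 6 falls in Lig-. Over all probes, 36.6% were called in Lig+ and 31.7% in Lig-. Large falls in both groups were those of Il2ra, the CD25 chain (-5.29 in Lig+ and -5.45 in Lig-), Ptcra, the pre-TCR alpha chain (-5.22 and -4.70), and Rag1, of the recombinase (-4.58 and -3.86). Dntt fell further than Rag1 in Lig+ and less than Rag1 in Lig- (-5.0 and -1.52, limma adjusted p = 2.19e-04 and 0.0467). Cd3g also fell (-1.99 and -2.35). Cd8b1, a CD8 chain, rose in Lig- (0.94, limma adjusted p = 0.0346), and Cd8a did not pass there (2.28, adjusted p = 0.0746). Of 13 thymocyte stage genes, 0 were higher and 2 lower in Lig+ than in Lig- (Thy1 by -1.08 and Dntt by -3.48, adjusted p = 0.00856 and 0.0165). Of the markers of other cells, 0 of 6 B cell genes were higher and 1 lower, with a mean ratio of -0.10 to 0.034 over the Lig+ arrays and -0.052 to 0.36 over the Lig- arrays. The counts were 1 and 1 of 8 for macrophages and granulocytes (-0.93 to -0.42 and -0.89 to -0.58), 1 and 0 of 3 for NK and innate lymphoid cells (-0.27 to 0.82 and -0.56 to -0.23), and 1 and 0 of 4 for dendritic cells (-0.18 to 0.48 and -0.91 to -0.68). They were 0 and 0 of 3 for erythroid cells (-1.35 to -0.087 and -1.25 to 0.18) and 0 and 1 of 5 for thymic epithelium (-1.48 to -0.63 and -1.47 to -0.93). Against DN3, macrophage and granulocyte genes gave 1 rise and 6 falls in Lig+ and 0 rises and 4 falls in Lig-. Thymic epithelium gave 0 and 1 in Lig+ and 0 and 3 in Lig-, and B cells 0 and 1, and 2 and 1. NK and innate lymphoid cells gave 1 and 2, and 0 and 1, dendritic cells 1 and 0, and 0 and 1, and erythroid cells none. Elane was not well above background on any Lig+ array. The part of these cells in the differences and in the changes against DN3 above was not tested.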

How the data were processed

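The files hold the spot intensity of both dyes on 7 arrays, extracted with Agilent Feature Extraction (9.5.3.1 on the later pair of slides and 9.5.1.1 on the earlier pair, per the file headers). The authors' deposited table holds log10 ratios, which equal Agilent's processed log ratios of DN4 over DN3 (largest difference 4.87e-08). Slides 1 and 2 and slides 3 and 4 were scanned on different days, and the headers of slides 3 and 4 alone name a build (mm7), with the same coordinates in all files.

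The analysis used limma 3.58.1 in R 4.3.3. Normexp (offset 50) corrected the background, each array was normalised by loess with its 1639 control spots at weight 0, ratios were turned to DN4 over DN3, and spots of a probe were averaged. LmFit and eBayes fitted terms for Lig+, Lig- and dye, since array 1 of each group carried DN4 RNA in Alexa 647 and the others in Alexa 555, with 4 residual and 2.35 prior degrees of freedom. The dye term passed in 289 probes, 1 of them a member. Median SEs were 0.0918, 0.101 and 0.13 (Lig+, Lig- and their difference). Median signals ran from 233 to 595, and the number of arrays limits the precision.

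Probes were named through accessions (174 members), current symbols (63) or older symbols (33) in a RefSeq table, and 52 kept the name in the file. Named probes were the 12 largest called rises and falls between the groups with 1 sign on slides 1 to 3, the 10 largest of each against DN3, the tested probes of the 5 nearest genes on either side of B2m, genes whose probes differed by at least 1, and up to 4 members of each of 7 function lists with the largest called change against DN3. 1 of the named falls is counted but not reported here. Members, lists and this rule were chosen with earlier results of these data known. The array labels pair Lig+ and Lig- arrays by slide on slides 1 to 3, and arrays of 1 slide deviated together (consensus correlation 0.584). Alternatives changed the signal, centring, filter, dye term, slide, scan day, probes per gene and arrays used. Scan day as a random block was added after seeing the data.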

Additional observations from a re-analysis of the deposited data

Results flagged for a closer look

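Of 73 groups of 4 arrays checked for an array far from the others, 2 held one, where chance gives about 1 in 20. Rhov read -2.49 on Lig+ array 1, against -3.7 to -3.54 on the other Lig+ arrays. Array 1 of either group was its only array with DN4 RNA in Alexa 647, and in Lig- too Rhov was least low on array 1. Mrps5 probe A_52_P147870 read 0.21 on Lig+ array 4, against -0.37 to -0.36 on the others.

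The effect against DN3 differed between Lig+ and Lig- for 31 named probes by the limma test of the difference. Many of these were named for a large called difference between the groups, so that they pass was fixed by the choice. Over all probes tested 10.9% passed. The values lower in Lig+ were -3.22 and -1.38 for Bmf, -1.62 for Capn3, -1.33 and -1.15 for Cdan1, -1.21 for Slc30a4, -1.04 for Rasgrp1, -1.04 for Inafm2, -1.03 and -0.97 for Mrps5, and -1.02 for Atp8b4. Smaller falls were -0.95 for A630026N12Rik, -0.90 for Ttbk2, -0.83 for Ltk, -0.71 for Ap4e1, -0.51 for Pla2g4f, -0.43 for Sord, -0.41 for Rtf1 and -0.39 for Zfp106. The values higher in Lig+ were 1.5 for Slc28a2, 1.30 for Sqor, 1.17 for the unnamed probe A_51_P306031, 1.14 for Dusp2, 0.99 and 0.82 for Tmem62, 0.85 for Itpripl1, 0.71 for Hdc, 0.69 for Blvra, 0.66 for Exd1, 0.55 for Ganc and 0.55 for Ehd4.

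For 8 named probes every Lig+ array lay on the other side of DN3 from every Lig- array, and 7 of them passed the test (Exd1, Hdc, Ehd4, Itpripl1, Atp8b4, Cdan1 probe A_52_P339703 and Mrps5 probe A_52_P650288). These 7 were named for a large called difference, and the share of such probes over the whole array was not counted. The exception was Spg11 probe A_51_P289407, 99.2 kb from the B2m probe, with a difference of -0.36 (adjusted p = 0.152).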

How the results depend on the processing

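Counts are of probes called at the same threshold, and no result changed sign as a called value. Of the 88 member calls in Lig- against DN3, 87 kept their sign on scan day 2 alone, called there or not. Among the members, the 44 calls between Lig+ and Lig- became 68 with slide as a fixed term, 74 with slide as a random block, 73 with scan day as a fixed term, 127 on scan day 1 alone and 69 on scan day 2 alone, and ran from 12 to 52 when 1 array was left out. On the rest of chromosome 2 the 258 calls became 169 with median centring, 489, 539 and 513 with slide fixed, slide random and scan day fixed, 434 with scan day as a random block (chosen after seeing the data), 1019 on day 1 alone and 409 on day 2 alone, and ran from 65 to 316 when 1 array was left out. Against DN3, the 99 calls in Lig+ became 190 on day 1 alone and 156 on day 2 alone and ran from 43 to 113 when 1 array was left out, and the 88 calls in Lig- became 199 on day 1 alone and ran from 21 to 97 when 1 array was left out. With scan day as a random block they became 79 in Lig+ and 61 in Lig-. The cause was not tested, except that fits to 1 day have fewer arrays and 1 residual degree of freedom and that day 2 has no dye term. Of the 44 calls, 11 held under every setting, among them both called probes of Bmf and those of Slc30a4, Inafm2, Sqor and Duox1. Slides 1 to 3 each held 1 array of each group, so the fixed slide term is a replicate block, a paired comparison of Lig+ with Lig-, which gave the 68 and 489 calls above. Among the named probes it ended the call of Ehd4 (0.55, adjusted p = 0.0652) and added calls for 1810024B03Rik, Golm2 probe A_52_P289071 and Ncaph (-1.87, -0.40 and 0.56, adjusted p = 0.0125, 0.0241 and 0.027). It gives no ratio against DN3.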
